A study of Drosophila melanogaster with 6 samples.

Results

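Purine and pyrimidine rings are built step by step from amino acids, carbon dioxide and folate-bound carbon units, and the resulting nucleotides feed the synthesis of RNA, DNA and cofactors. The purine route runs from phosphoribosyl pyrophosphate to inosine monophosphate (IMP), where it splits into a branch to AMP and a branch to GMP. The pyrimidine route builds its ring first and attaches the sugar later, ending in UMP. Several enzymes of both routes are fused proteins in animals, and mutants of their genes in Drosophila melanogaster were found early through eye colour and wing phenotypes.

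The genes described here are 10 genes of these routes, out of 14869 gene identifiers in the count files. They were taken by FlyBase symbol: Prat, Gart (formerly ade3), Pfas (formerly ade2), Paics (formerly ade5), Adsl, Adss, ras and bur of the purine route, and r and Dhod of the pyrimidine route. All 10 had an identifier in the files, and all 10 passed the filter on low counts, which kept the 8690 genes whose scaled counts averaged 10 or more. They were chosen by pathway, with their differences in read count between JQ1 and DMSO already known, so the members' own values in that contrast are given as a description, with no test.

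RNA was sequenced from S2-DRSC, an embryo-derived line of Drosophila cells in culture with blood cell features, grown in Schneider's medium with serum. JQ1 is a compound that competes with acetylated histones for the bromodomains of BET proteins, of which the fly has only FSH. To ask how gene expression responds to FSH inhibition, cells received 10 µM JQ1 for 1, 2, 4 or 20 h, or the solvent DMSO alone for 1 or 20 h. Each treatment and time gave 1 mRNA library. No label says whether the libraries came from separate cultures, so every p-value measures only the spread between these libraries, which may be technical and, among the 4 JQ1 libraries, includes treatment duration.

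The libraries held 24547077 to 29823608 reads assigned to genes. All 10 blood cell markers checked passed the filter, with summed scaled counts of 628511 to 640283 in DMSO and 597235 to 1087255 in JQ1. They did not move together: Hml went from 12710 and 13842 in DMSO to 129575 at JQ1 20 h, and Sr-CI from 20211 and 21345 to 5400 at 4 h, and their part in the results below was not tested. Neuron, muscle, fat body and germline markers summed to at most 588.7, 66.8, 46.02 and 27.3 scaled counts in any library. The muscle and germline sums rest on 2 of 3 listed genes each, since Mhc and vas were not matched to an identifier. Most of the neuron sum was elav. A scaled count is the read count divided by a library factor set on the 100 genes most abundant in DMSO, none of which was among the 10 members. On this scale the median log2 fold change of all tested genes between the 4 JQ1 and the 2 DMSO libraries was -0.63, against -0.43 on an index of 500 genes, -0.37 on total counts, -0.048 with TMM and 0.00013 with DESeq2 factors. Levels are therefore given on the index scale with the number of scalings that share their direction, and then relative to the median of all tested genes or as ratios of 2 genes within a library, from which a library's factor cancels. In cells in bulk, less RNA per cell and fewer cells that hold it cannot be told apart.

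In DMSO the 10 genes covered a wide range of levels. Per kilobase of exon, the order by mean scaled count was Adss (6632), Paics (5273), bur (2546), Pfas (1491), r (1459), Gart (1174), Dhod (1099), ras (1055), Prat (989.1) and Adsl (476.6). The DMSO libraries of 1 and 20 h gave this same order. Pfas (1420 and 1563) and r (1401 and 1517) overlapped in their DMSO values and did not differ beyond them, while the other neighbours in the order had separate values, Gart (1134 and 1215) and Dhod (1114 and 1084) by the smallest distance. Adsl, near the middle of all tested genes, had a higher level per kilobase than 48.2% of them, and Adss had a higher level than 96.8%. In JQ1 the order changed at the top and lower down. Paics stood above Adss at 1, 2 and 4 h, with 8668 against 4970 scaled counts per kilobase at 4 h. At 20 h Paics was below Adss again, with 4708 against 6348. Pfas went from rank 4 in DMSO to 5, 6, 8 and 7 in JQ1 of 1, 2, 4 and 20 h. Over the same times ras went from rank 8 to 6, 5, 4 and 5. The ranks of r, Gart and Dhod also shifted, while bur, Prat and Adsl kept theirs.

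**Figure D1:**
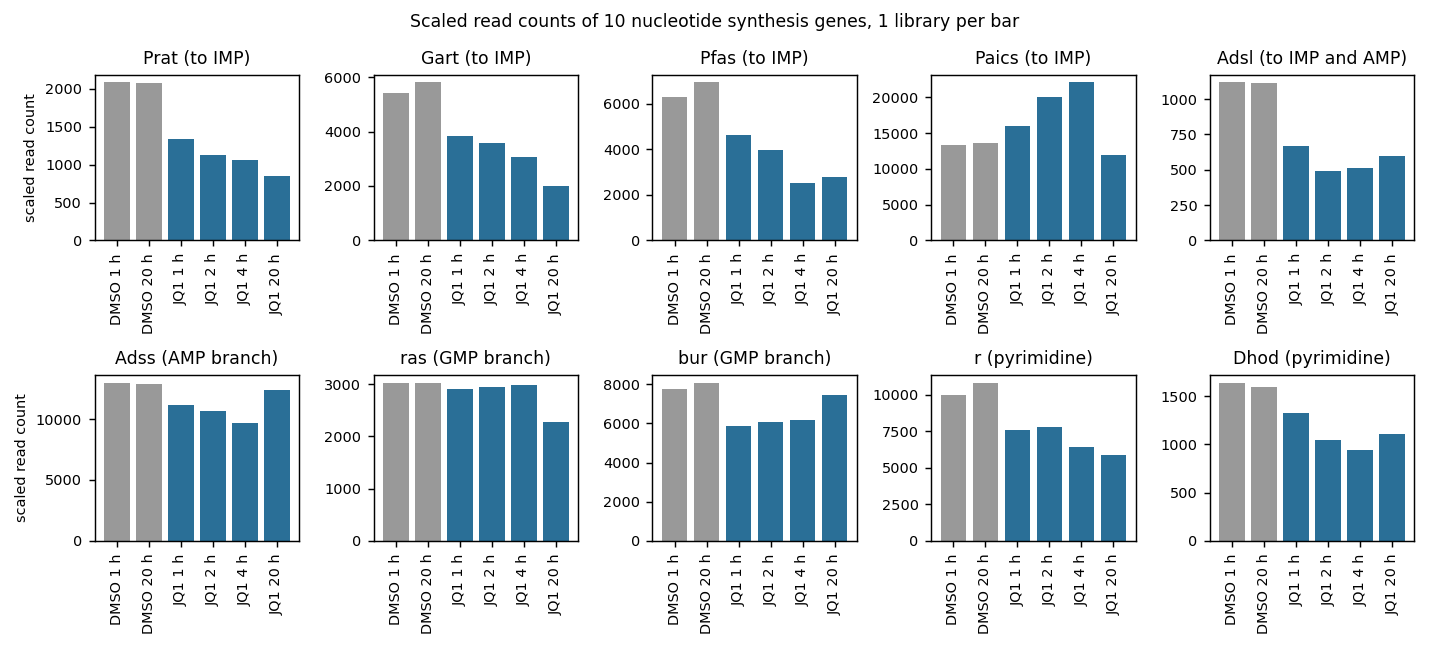
Scaled read counts (vertical axes, starting at 0) of the 10 genes in the 6 libraries, with 1 bar per library, DMSO in grey and JQ1 in blue; there are no error bars because each treatment and time had 1 library. Paics stands highest at JQ1 4 h with 22103 scaled counts, while Prat and Gart are lower at each later JQ1 time.

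On the index scale the genes of the early purine route mostly had lower read counts in JQ1 than in DMSO, as most tested genes had. Prat (FBgn0004901, chromosome arm 3R) encodes amidophosphoribosyltransferase, which commits phosphoribosyl pyrophosphate to purine synthesis. It had 2086 and 2078 scaled counts in DMSO of 1 and 20 h, and 1344, 1132, 1062 and 846.3 in JQ1 of 1, 2, 4 and 20 h. All 4 JQ1 libraries lay below both DMSO libraries, and each was lower than the one before. Prat thus stood at 64.6%, 54.4%, 51.02% and 40.7% of its mean DMSO level, and was below DMSO at each time under all 5 scalings.

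Gart (FBgn0000053, arm 2L) encodes a fused protein with the GARS, AIRS and GART activities, which act at separate steps of ring assembly. Its scaled counts were 5419 and 5808 in DMSO and 3850, 3566, 3077 and 2013 in JQ1 of 1, 2, 4 and 20 h. On the index scale Prat and Gart were the 2 members whose level dropped at every step of the JQ1 series, a course shared by 15.0% of the tested genes. Relative to the median of all tested genes Prat was higher at 4 h (-0.16) than at 2 h (-0.23). At 20 h Gart was at 35.9% of DMSO, a log2 fold change of -1.48 (95% counting interval -1.55 to -1.41), which was the lowest value of any member at any time. It was below DMSO under all 5 scalings at 2, 4 and 20 h and under 4 of them at 1 h.

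Pfas (FBgn0000052, arm 2L) encodes FGAM synthase, which adds a nitrogen from glutamine between the steps that Gart serves. It had 6295 and 6930 scaled counts in DMSO and 4644, 3949, 2516 and 2775 in JQ1 of 1, 2, 4 and 20 h. The groups did not overlap, and on the index scale it was lowest at 4 h, at 38.05% of DMSO, unlike Prat and Gart. Relative to the median of all tested genes Pfas was lowest at 20 h (-0.66, beside -0.59 at 4 h), as Prat and Gart were. Its direction held under all 5 scalings at 2, 4 and 20 h and under 3 of them at 1 h. The count ratio of Gart to Pfas was 0.861 and 0.838 in DMSO, 1.22 at 4 h and 0.725 at 20 h, so these neighbours in the route kept no fixed ratio.

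Adsl (FBgn0038467, arm 3R, listed as AdSL) encodes adenylosuccinate lyase, which acts once before IMP and again on the AMP branch. Its level was the lowest of the list, with 1117 and 1114 scaled counts in DMSO and 666, 490.9, 508.8 and 594.2 in JQ1 of 1, 2, 4 and 20 h. All JQ1 values lay below both DMSO values. It was lowest at 2 h, at 44.05% of DMSO, and at 1 h its 59.7% was the lowest of the 10 members. The counting intervals of its log2 fold change at 2 and 4 h overlapped (-1.32 to -1.05 and -1.27 to -0.995). The direction was the same under all 5 scalings at each time.

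Paics (FBgn0020513, arm X) encodes AIR carboxylase and SAICAR synthetase, the steps between the products of Gart and the first reaction of Adsl. It went the other way from its neighbours in the route. From 13318 and 13573 scaled counts in DMSO, it stood at 16048 at 1 h, 20062 at 2 h and 22103 at 4 h of JQ1, above both DMSO libraries, and at 12005 at 20 h, below both. At 4 h this was 164% of DMSO, a log2 fold change of 0.72 (95% counting interval 0.69 to 0.74). The values at 1, 2 and 4 h were above DMSO under each of the 5 scalings tried. The 20 h value (-0.16) was below DMSO under 3 of the 5 scalings and above it under the other 2, where it reached 0.40.

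Because a ratio of 2 genes within a library does not depend on scaling, Paics was set against each other member. Paics reads per Pfas read were 2.12 and 1.96 in DMSO, then 3.46, 5.08, 8.79 and 4.33 in JQ1 of 1, 2, 4 and 20 h. Paics reads per Gart read were 2.46 and 2.34 in DMSO, then 4.17, 5.63, 7.18 and 5.97. For Prat, Gart, Pfas, Adsl, ras, r and Dhod, all 4 JQ1 ratios were above both DMSO ratios. For Adss and bur the 20 h ratio, 0.969 and 1.61, was below both DMSO ratios, whereas the ratios at 1, 2 and 4 h were above them. Adsl had the fewest reads of the members, and the ratio to it was the largest, from 11.9 and 12.2 in DMSO to 43.4 at 4 h. In proportion to its DMSO values, the ratio to Pfas moved furthest.

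**Figure D2:**
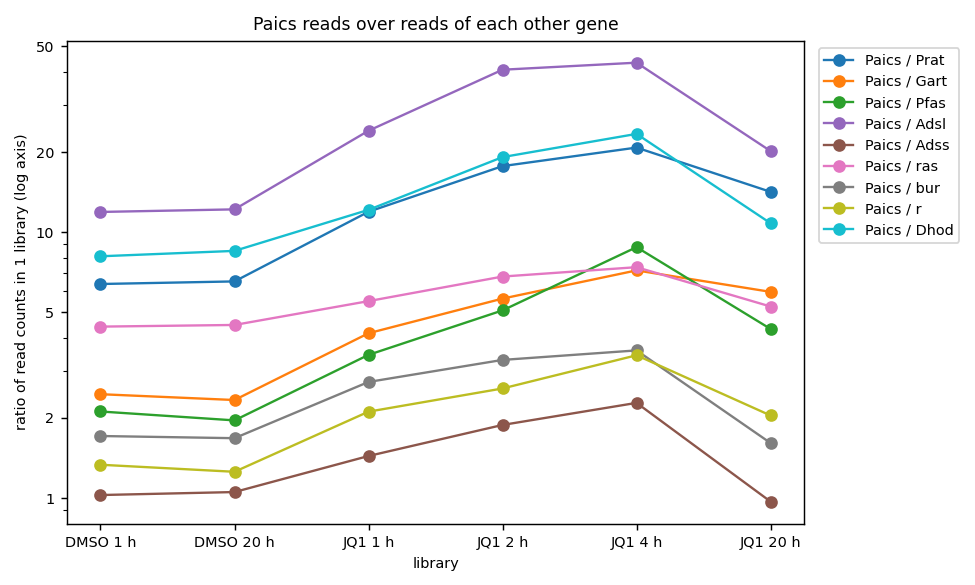
Read count of Paics divided by the read count of each other gene in the same library (vertical axis, log scale) for the 6 libraries, 1 point per library and gene, joined by lines to guide the eye. All 9 ratios are highest at JQ1 4 h, for example 8.79 for Pfas against 2.12 and 1.96 in DMSO.

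Beyond IMP, Adss, ras and bur lay closer to DMSO than Prat, Gart, Pfas and Adsl did on the index scale. With DESeq2 factors the fitted log2 fold changes of Adss, ras and bur were 0.39, 0.52 and 0.32. Those of Prat, Gart, Pfas and Adsl were then -0.29, -0.20, -0.31 and -0.35, so the nearness to DMSO did not hold under that scaling. Adss (FBgn0027493, arm 3R, listed as AdSS) encodes adenylosuccinate synthetase, the entry to the AMP branch. It had 12985 and 12895 scaled counts in DMSO and 11148, 10657, 9696 and 12384 in JQ1 of 1, 2, 4 and 20 h. On the index scale these values lay below DMSO without overlap, whereas Adss lay above DMSO under 4, 3, 2 and 4 of the 5 scalings at 1, 2, 4 and 20 h. Adss and Adsl, which catalyse the successive steps of this branch, parted in every JQ1 library: reads of Adss per read of Adsl were 11.6 in both DMSO libraries and 16.7 to 21.7 in JQ1.

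On the GMP branch, ras (FBgn0003204, arm X) encodes IMP dehydrogenase and bur (FBgn0000239, arm 2L) encodes GMP synthetase. The scaled counts of ras were 3017 and 3031 in DMSO, and 2915, 2945 and 2992 in JQ1 of 1, 2 and 4 h, or 96.4%, 97.4% and 98.9% of DMSO. The counting intervals of the log2 fold change at these times all contained 0 (-0.12 to 0.01, -0.10 to 0.02 and -0.08 to 0.05). At 20 h ras was at 2285, or 75.6%. It lay above DMSO under 4 of the 5 scalings at 1, 2 and 4 h and under 2 of them at 20 h.

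The course of bur differed in time. It had 7783 and 8085 scaled counts in DMSO, 5872, 6064 and 6153 at 1, 2 and 4 h of JQ1, and 7457 at 20 h. It was lowest at 1 h, at 74.01% of DMSO, and nearest to DMSO at 20 h, at 93.98%. It lay above DMSO under 2 of the 5 scalings at 1, 2 and 4 h and under 3 of them at 20 h. Reads of bur per read of ras were 2.58 and 2.67 in DMSO, 2.01 to 2.06 in JQ1 of 1 to 4 h, and 3.26 at 20 h, so the ratio passed from below to above its DMSO values.

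The pyrimidine genes were low at all JQ1 times on the index scale, but not under each scaling. The gene r (FBgn0003189, arm X), rudimentary, encodes the fused CAD protein that makes dihydroorotate. It had 9982 and 10813 scaled counts in DMSO and 7596, 7768, 6418 and 5873 in JQ1 of 1, 2, 4 and 20 h. Dhod (FBgn0000447, arm 3R) encodes dihydroorotate dehydrogenase, the mitochondrial enzyme of the next step, and had 1640 and 1595 scaled counts in DMSO and 1321, 1046, 943.1 and 1110 in JQ1. In both genes the groups did not overlap. The lowest values were 56.5% of DMSO for r at 20 h and 58.3% for Dhod at 4 h. Of the 5 scalings, 2 placed r above DMSO at 1, 2 and 4 h and none did at 20 h. Dhod was above DMSO under 3 of them at 1 h and under 1 at each later time. Reads of r per read of Dhod ranged from 6.09 to 6.78 in DMSO and from 5.29 to 7.42 in JQ1, so the JQ1 range enclosed the DMSO range.

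The next comparison set the members against all tested genes. The median log2 fold change of the 10 members was -0.44, -0.52, -0.74 and -0.68 at 1, 2, 4 and 20 h, beside -0.54, -0.65, -0.81 and -0.59 over all tested genes. The median of the members was thus 0.10, 0.12 and 0.07 above all genes at 1, 2 and 4 h and 0.09 below at 20 h (-0.09). Between the DMSO libraries it was -0.04 relative to all genes, and no member differed there by more than 0.14 on the log2 scale before that subtraction. No member changed beyond 2-fold between them, as 0.357% of tested genes did downwards and 0.437% upwards. The list as a whole therefore lay near the middle of all genes, while its members spread by 1.00, 1.76, 2.11 and 1.42 log2 units from lowest to highest at the 4 times.

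Relative to all genes, Paics was 0.80, 1.22, 1.52 and 0.43 higher at 1, 2, 4 and 20 h, which placed it above 95.7%, 95.4%, 96.9% and 71.8% of tested genes. The other members above the median of all genes at all 4 times were ras (0.19 to 0.79), Adss (0.33 to 0.53), bur (0.11 to 0.50) and Dhod (0.02 to 0.25). Those below it at all 4 times were Prat (-0.71 to -0.09), Adsl (-0.54 to -0.20) and Gart (-0.89 to -0.0019). Gart followed the median of all genes closely at 1, 2 and 4 h, within 0.06, and left it at 20 h. The relative values of Pfas were 0.03, -0.10, -0.59 and -0.66 at 1, 2, 4 and 20 h. Those of r were 0.09, 0.23, 0.11 and -0.23. Relative to all genes, the members of the route up to IMP other than Paics thus lay lowest at 20 h or at 2 h (Adsl), and Adss, ras and bur lay above the median throughout.

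Abundance moved with the change across genes. Tested genes were divided into 5 equal classes by DMSO level, and 6 of the 10 members were in the most abundant class and 2 in the next. In the most abundant class the median log2 fold change was -0.38, -0.40, -0.49 and -0.28 in the JQ1 libraries of 1, 2, 4 and 20 h. Beside the last of these, Gart (-1.48) and Pfas (-1.25) were low at 20 h and Adss (-0.06) and bur (-0.09) were high. Gart, Pfas and r lay below the class median at every time, r at -0.45, -0.42, -0.70 and -0.82. Paics and Adss lay above it at every time, and bur was below it at 1 h (-0.43) and above it later. Prat and ras were in the next class, with medians of -0.57, -0.71, -0.81 and -0.53. Prat lay below these at every time and ras above them. Adsl and Dhod were in the middle class, with medians of -0.74, -1.01, -1.14 and -0.77. Adsl, at -0.74, -1.18, -1.13 and -0.91, lay near these, while Dhod lay above them at every time. The part of abundance in these values was not tested.

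**Figure D3:**
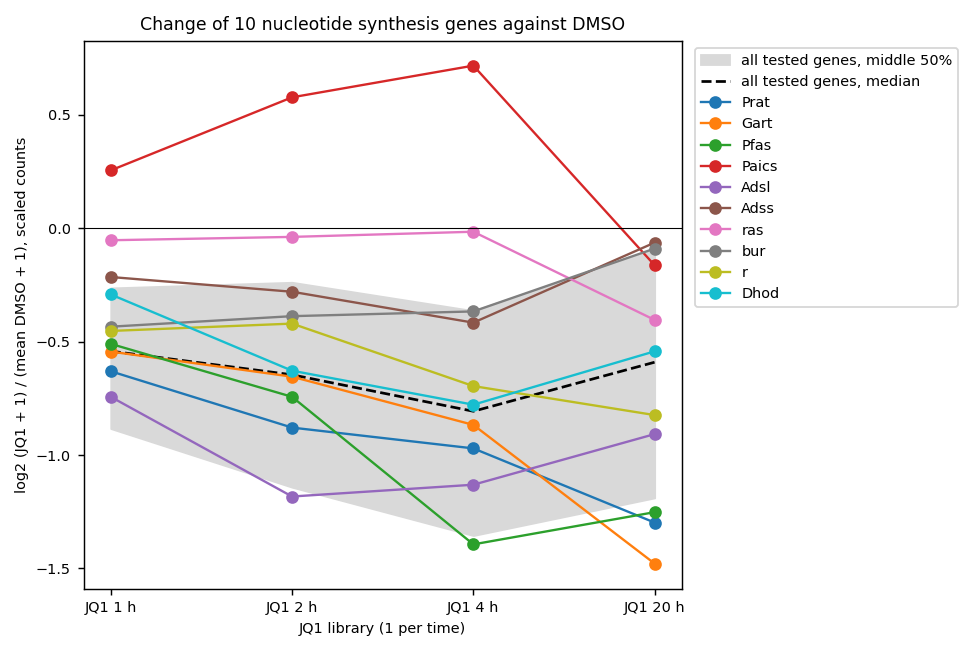
Log2 ratio of scaled counts in each JQ1 library to the mean of both DMSO libraries, with a pseudocount of 1 (vertical axis), for the 10 genes (coloured points and lines), with the median (dashed) and middle 50% (grey band) of the 8690 tested genes. Another scaling moves all points and the band of a library up or down together; Paics and ras lie above the band at 1, 2 and 4 h, Adss at 1 and 20 h and bur at 20 h, while Adsl lies below it at 2 h, Pfas at 4 h, and Gart, Prat and Pfas at 20 h.

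By number, 0, 1, 2 and 3 of the 10 members were below 50% of DMSO at 1, 2, 4 and 20 h, where 19.4%, 31.1%, 39.5% and 31.4% of all tested genes were. They were Adsl at 2 h, Adsl and Pfas at 4 h, and Prat, Gart and Pfas at 20 h. On the index scale none was above 200% at any time, as were 0.875%, 2.36%, 2.00% and 4.40% of all tested genes. This did not hold under each scaling for Paics. Among the other scalings its highest log2 fold change was 1.216 at 2 h, which is above 200%, and was higher still at 4 h. At 1 and 20 h Paics stayed below 200% under all 5 scalings. With TMM or DESeq2 factors no member was below 50% at any time. Across all libraries, 9 of 10 members had every JQ1 value below both DMSO values, as did 67.9% of tested genes, and the exception was Paics. No member had every JQ1 value above both DMSO values, as 3.74% of tested genes had. Since the members were chosen with this contrast known, nothing is read from these counts. As a description, the members' log2 fold changes over 4 JQ1 and 2 DMSO libraries, as edgeR fitted them, ran from -0.98 ± 0.19 (SE) for Adsl to 0.38 ± 0.24 for Paics.

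The models of some members overlap other genes, and the use of strand in the counting was not stated. In the annotation of BDGP6, ras shares 160 exonic bases (5.58% of its own) with stx and 21 with Rph on the opposite strand. The scaled counts of stx were 2059 and 2206 in DMSO and 1525, 1468, 1051 and 740.3 in JQ1 of 1, 2, 4 and 20 h, and those of Rph went from 651.1 and 680.3 to 409.4, 334.4, 229.1 and 118. Both stx and Rph were thus low at 4 h, when ras was at 98.9% of DMSO. Prat shares 124 exonic bases with Taf7, which had 789.1 and 881.5 scaled counts in DMSO and 297 to 453.2 in JQ1. Dhod shares 103 with SLIRP2 and 69 with Sys1, whose scaled counts were at most 111.3 and 689.2. Pfas shares 103 with CG31643, which had at most 4 reads in any library. Pcp, Pxd and CG15865 overlap Gart, Adsl and r respectively but share no exonic bases with them, and had at most 33.8 scaled counts. Other models that share exonic bases with a member were not matched to an identifier in the files and have no values here. They are asRNA:CR44911 with bur (354 bases), lncRNA:CR44766 with ras on the same strand (154), CG43322 with Gart and asRNA:CR44047 with Adss (103). The part of these overlaps in the members' values was not tested. Paics overlaps no gene of that annotation.

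The other genes of nucleotide metabolism were not members and were tested. This list and the test were also chosen with earlier results of these data known, so the p-values carry that limit. A list of 43 genes held the rest of the synthesis routes, the folate enzymes that supply carbon, nucleotide kinases, deoxynucleotide enzymes, and salvage and breakdown. Of these, 40 had an identifier in the files and 35 passed the filter. In edgeR's quasi-likelihood test with Benjamini-Hochberg adjustment over all 8690 genes, 12 fell (34.3%, beside 44.3% of all tested genes) and 23 did not pass. In that test 0 rose, also at an unadjusted p under 0.05 and in the Wald test of DESeq2, beside 1.43% of all tested genes. With TMM and with DESeq2 factors edgeR called 0 as higher, but 3 were higher at an unadjusted p under 0.05. The median log2 fold change of the 35 was -0.91, against -0.63 over all tested genes. The number of falls depended on scaling, with 3 on total counts, 4 on an index of 500 genes and 0 with TMM or DESeq2 factors. Over all tested genes the share of falls among calls moved from 96.9% to 56.4% with TMM and 51.2% with DESeq2 factors. It depended on single libraries too: edgeR called 5 of the list without the JQ1 2 h library, 6 without the 4 h library, 21 without the 20 h library and 0 without either DMSO library.

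All 3 tested genes of the rest of the synthesis routes fell, as did 44.3% of all tested genes. They were Prps, which makes phosphoribosyl pyrophosphate, CG11089, the enzyme of the last steps to IMP, and r-l, UMP synthase. CG11089 (FBgn0039241) had 1550 and 1507 scaled counts in DMSO and 883.9, 592.1, 624.8 and 1103 in JQ1 of 1, 2, 4 and 20 h, so that its log2 fold change was -0.93 ± 0.27 (SE; adjusted p-value 0.0316 in edgeR). It was thus lowest at 2 h, as Adsl was, which acts just before it. In both genes the 4 h value lay close to that of 2 h, and CG11089 had 696 reads at 2 h and 679 at 4 h. For r-l (FBgn0003257) the values were 2108 and 2152 in DMSO and 1350, 992, 950.5 and 1118 in JQ1, with a log2 fold change of -0.95 ± 0.18 (adjusted p-value 0.00920 in edgeR). Prps (FBgn0036030) had 2114 and 2058 in DMSO and 1546, 1359, 1216 and 1101 in JQ1, with -0.68 ± 0.17 (adjusted p-value 0.0206 in edgeR). The highest adjusted p-value without any 1 JQ1 library was 0.0545 for Prps, 0.0704 for CG11089 and 0.0347 for r-l. With the other 4 scalings r-l was called in 2 and the other 2 genes in none. On the opposite strand r-l shares 194 exonic bases with AnxB9, which had 17636 and 14760 reads in DMSO and 29787 at JQ1 20 h. CG11089 shares 90 on its own strand with CG31381, which had 206 and 170 reads in DMSO and 67 to 79 in JQ1. The part of these overlaps was not tested.

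Prat2, the second amidophosphoribosyltransferase gene, had 1 read in each DMSO library and 1 to 4 reads in the JQ1 libraries, so Prat carried nearly all reads for this step. No difference in Prat2 was detectable at this depth. Of the synthesis genes, the CTP synthase gene Ctps was not matched to an identifier in the files and is not analysed here.

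Among the remaining groups, 1 of 4 folate genes, 2 of 6 nucleotide kinases, 1 of 5 deoxynucleotide genes and 5 of 17 salvage and breakdown genes fell. Each of these shares was below the 44.3% of all tested genes that fell. The folate gene was pug, whose enzyme interconverts the folate carriers of carbon units, with 405.1 and 405 scaled counts in DMSO and 199.7 to 232.8 in JQ1. Its log2 fold change was -0.92 ± 0.19 (SE; adjusted p-value 0.0119 in edgeR). On the same strand pug shares 156 exonic bases with CG14683, which had more reads than pug, 1929 and 1855 in DMSO and 1774, 1312, 651 and 386 in JQ1 of 1, 2, 4 and 20 h, and the part of this overlap was not tested. Of the kinases, nmdyn-D6, a nucleoside diphosphate kinase gene, went from 126.9 and 118.1 to 26.4, 21.3, 30.4 and 58.02 scaled counts at 1, 2, 4 and 20 h. Its log2 fold change was -1.85 ± 0.40 (adjusted p-value 0.0132 in edgeR). Leaving out any single JQ1 library gave adjusted p-values of at most 0.0433 for pug and 0.0393 for nmdyn-D6, but neither was called without either DMSO library. The more abundant nucleoside diphosphate kinase gene awd did not pass, with 17483 and 17378 scaled counts in DMSO and 14549 to 18477 in JQ1.

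Of the breakdown genes, CRMP, a dihydropyrimidinase gene, showed the most negative call of the list. It had 2219 and 2329 scaled counts in DMSO and 1017, 789.5, 469.3 and 205.1 in JQ1 of 1, 2, 4 and 20 h, so that its log2 fold change was -1.87 ± 0.53 (SE; adjusted p-value 0.0284 in edgeR). Next among the breakdown genes came ry, xanthine dehydrogenase, at -1.58 ± 0.41 (adjusted p-value 0.0225 in edgeR) and cN-IIIB, a nucleotidase gene, at -1.34 ± 0.45 (0.0465 in edgeR). The ribonucleotide reductase gene RnrL fell by 1.14 ± 0.34 on the log2 scale (adjusted p-value 0.0334 in edgeR). The highest adjusted p-value without any 1 JQ1 library was 0.0745, 0.0555, 0.0992 and 0.0829 for CRMP, ry, cN-IIIB and RnrL, so that each lost its call without some library. The other calls were su(r), Adk2 (listed as AdenoK) and CG11811, with log2 fold changes of -0.91, -0.64 and -0.84. Of these, su(r) lost its call without some JQ1 library, with an adjusted p-value of up to 0.0544 in edgeR. With the other 4 scalings CG11811 was called in 2. In none of them were su(r), Adk2, CRMP, ry, cN-IIIB or RnrL called, and the log2 fold change of Adk2 came as near to DMSO as -0.0105.

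The 5 deoxynucleotide genes, and the kinase gene CG5757 for its low 20 h level, are named here after their values were seen. RnrL, RnrS, Ts, dnk and dUTPase were at 23.4%, 15.0%, 4.13%, 11.3% and 27.4% of DMSO at 20 h. At 1 h they were at 62.8%, 70.6%, 77.7%, 74.02% and 88.0%. Thymidylate synthase, Ts, went from 3655 and 3800 scaled counts in DMSO to 153.1 at 20 h, and CG5757, thymidylate kinase, from 1027 and 1044 to 23.01. Of these 6 genes, RnrL alone passed the test over all 4 times, in which the spread between JQ1 times counts as error. The 20 h values rest on 1 library and have no replicate check.

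**Figure D4:**
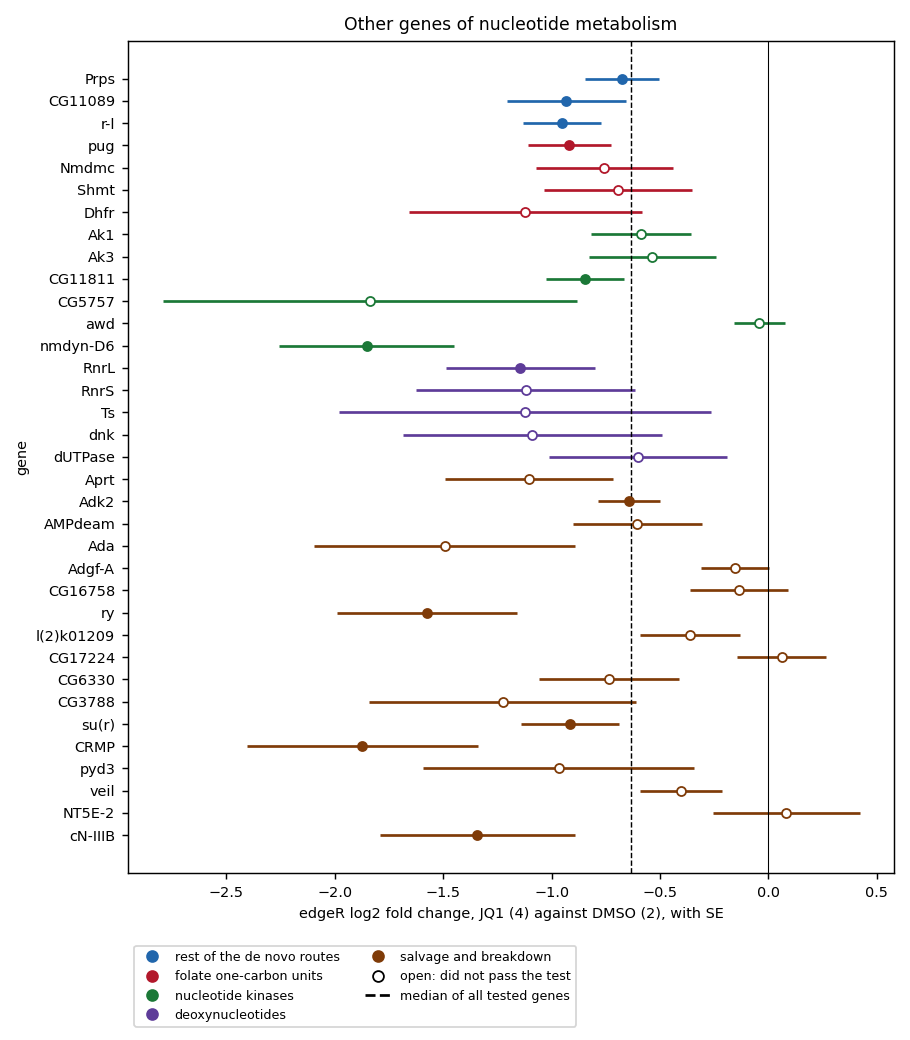
Log2 fold change of 4 JQ1 against 2 DMSO libraries from edgeR with its SE (horizontal axis) for the 35 tested genes of nucleotide metabolism that are not members; filled points passed the test, open points did not, colours give the group, and the dashed line is the median of all tested genes (-0.63). The 12 genes that passed all lie left of 0 on this index scale, where nmdyn-D6 and CRMP lie furthest left among them.

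Finally, the members' median profile over the 6 libraries was compared with 7329 other genes of at least 50 scaled counts. The 5 most alike by Pearson r of log2 scaled counts were CG1582, Ndae1, Snm1, Nup205 and cup, with r from 0.9987 to 0.9998. Nup205 encodes a nuclear pore protein and cup a protein that binds the cap-binding factor eIF4E. The scaled counts of CG1582 were 2783 and 2869 in DMSO and 1466, 1170, 850.2 and 751.3 in JQ1. Such likeness was common, since 32.1% of the genes compared had an r over 0.9 with the same profile. All values share the same 6 libraries and the same scaling. Against the median profile of the other 9 members, r was 0.88 to 0.99 for Prat, Gart, Pfas, Adsl, r and Dhod, 0.53 to 0.62 for Adss, ras and bur, and -0.43 for Paics.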

How the data were processed

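The deposited files were made by the authors with TopHat (build BDGP5) and HTSeq, from reads with a unique place in a gene model. Their versions and the use of strand are not given in the sources used here. The deposited values are raw counts for 14869 genes and 5 lines that name no gene (21.9% to 27.3% of records), which were left out. Symbols, chromosome arms, exonic lengths and overlaps came from the BDGP6 annotation (Ensembl 115), which named 91.0% of identifiers; no coordinates are given, since the builds differ.

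Counts were divided by the median ratio of the 100 genes most abundant in DMSO to their geometric mean. This follows the authors' index, for which the formula was chosen here. JQ1 (4 libraries) was compared with DMSO (2 libraries) by edgeR 4.0.16 in R 4.3.3 (quasi-likelihood, two-sided, Benjamini-Hochberg, threshold 0.05) over 8690 genes, with no covariate. Each SE was derived from that fit, as the absolute log2 fold change over the square root of the F statistic. Single times were given as log2 (JQ1 + 1) over (mean DMSO + 1), which understates changes of low genes. Their 95% intervals (Clopper-Pearson on raw counts) cover counting error only. Depth was 24547077 to 29823608 gene reads.

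The members, lists and tests were chosen with earlier results of these data known. Named genes were all members, overlapping genes, the rest of the synthesis routes, called genes of the other groups (at most 6 each way) and the 5 most alike profiles. The genes su(r), Adk2, CG11811, awd, CG5757 and the deoxynucleotide genes were named beyond this rule, after their values were seen. Of the 43 other genes, 40 were matched to an identifier; Cmpk and Adk1 had 0 reads, which allows up to 3 per library, and Prat2, Adgf-D and Uro were under the filter. Alternatives were 4 other scalings, other filters, a pseudocount of 5, DESeq2 1.42.0, duration as a block and leaving out each library.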

Additional observations from a re-analysis of the deposited data

Results flagged for a closer look

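In 35 tested genes of nucleotide metabolism and the 10 members, the 4 JQ1 libraries were checked for 1 value far from the rest by Dixon's ratio. Chance alone marks about 1 in 20 such groups, and the JQ1 libraries differ in duration. In ras the 20 h library stood apart at 2285 scaled counts, against 2915 to 2992 at 1 to 4 h. In 4 other genes the 20 h library also stood apart: Ak3 at 149.1, Adgf-A at 12183, l(2)k01209 at 3328 and CG17224 at 6904 scaled counts.

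Paics differed in direction between durations when JQ1 and DMSO of equal duration were compared. Its log2 fold change was 0.27 at 1 h and -0.18 at 20 h on the index scale. The difference was not tested, since each value rests on 1 library per treatment. Relative to all genes Paics was above the median at both times, by 0.80 and 0.43, against the mean of both DMSO libraries.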

How the results depend on the processing

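The median of the members relative to all genes kept its sign at each time with a pseudocount of 5, a filter at 50 scaled counts and either DMSO library as the only control; a library's scaling factor nearly cancels from it. Counts of members below 50% moved with scaling. At 2 h the count went from 1 to 0 under each of the 4 other scalings; at 4 h from 2 to 1 on total counts or an index of 500 genes and to 0 with TMM or DESeq2 factors; at 20 h from 3 to 0 with TMM or DESeq2 factors. With 1 DMSO library as the control the counts stayed at 0, 1, 2 and 3.

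The fitted log2 fold changes of 5 members turned positive under other scalings. For Adss they were 0.0212 on total counts, 0.34 with TMM and 0.39 with DESeq2 factors. For ras they were 0.0909 on an index of 500 genes, 0.16 on total counts, 0.47 with TMM and 0.52 with DESeq2 factors. For bur they were 0.27 with TMM and 0.32 with DESeq2 factors, for Dhod 0.0292 and 0.0772, and for r 0.0476 with DESeq2 factors.

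Of the other nucleotide genes, 12 fell in the test reported, and edgeR called 3 on total counts, 4 on an index of 500 genes, and 0 with TMM (4 at an unadjusted p under 0.05) or DESeq2 factors (3). With TMM and with DESeq2 factors 3 rose at an unadjusted p under 0.05 in edgeR, and 0 after adjustment. With 1 library left out the count of falls ranged from 0 to 21. With treatment duration as a block, on the 4 libraries of 1 and 20 h, edgeR called 0 (9 at an unadjusted p under 0.05), and 0 (also 9) on those libraries without the block, a setting added after seeing the data. Over all tested genes, chosen likewise, 3853 lower and 124 higher calls became 1895 lower on total counts, 2248 lower on an index of 500 genes, 565 and 436 with TMM and 482 and 459 with DESeq2 factors. With 1 library left out they ranged from 0 to 5586 lower and from 0 to 214 higher. With the block they were 0 and 0 (2566 and 76 at an unadjusted p under 0.05), and 0 and 0 without it (3066 and 90). By replicate number, no paired analysis was possible because the labels give none, and the pairing by duration is the block given above. The cause of these shifts was not tested beyond the fewer samples of the last settings. Depth limits Prat2 and the genes under the filter, and 1 library per time limits every single time.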
